A study of Rattus norvegicus with 6 samples.

Results

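The 10 genes described here encode receptors for fibroblast growth factors (FGFs) and transcripts that FGF signalling is known to induce. They are 3 receptor genes (Fgfr1, Fgfr2 and Fgfr3), 3 Sprouty genes (Spry1, Spry2 and Spry4), the 3 genes of the PEA3 group of ETS transcription factors (Etv1, Etv4 and Etv5) and the phosphatase gene Dusp6. They were taken by symbol from the 30498 genes of the deposited tables, and each symbol matched 1 Ensembl gene. RNA came from brains of newborn rats (Rattus norvegicus), labelled as whole brain, whose dams were either controls or calorically restricted (CR), a treatment used to limit fetal growth. Both groups were born by Caesarean section, and brains were dissected immediately. Each group had 3 libraries of polyadenylated RNA. The sources used here do not state the strain or the timing and degree of the restriction. Nor do the labels tell whether each library is a different pup or litter, and the spread behind each p-value is that between libraries only.

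FGF receptors are tyrosine kinases that signal through the adaptor FRS2, RAS and the kinases RAF, MEK and ERK. In the embryonic brain, FGFs from the anterior telencephalon and from the boundary of midbrain and hindbrain pattern the tissue around them, and FGF signalling keeps progenitors dividing and promotes the formation of glia. The response limits itself, since ERK activity induces Sprouty proteins, which restrain the pathway upstream of ERK, and DUSP6, which dephosphorylates ERK in the cytoplasm, together with the PEA3-group factors, which carry the response to target genes. Messenger RNA levels do not measure ERK activity.

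Libraries held 14030961 to 25734737 reads assigned to genes. Levels are in FPKM, which scales reads by exon length and by all assigned reads of the library. Markers of caudal brain regions differed between the groups: 12 midbrain markers summed to 2.79 to 5.20 FPKM in control libraries and 39.0 to 50.5 in CR libraries, all 12 with their 3 CR values above their 3 control values, and Pax7, Pou4f2, Hoxa2, Hoxa3, Hoxb3 and Hoxb5 had no read in any control library although all libraries are labelled whole brain. Markers of the dorsal telencephalon, the part that forms the cortex, summed to 524 to 630 FPKM in control libraries and 205 to 303 in CR libraries, and all 10 were lower in each CR library than in each control library. CR replicate 3 stood apart in the hindbrain marker Hoxb5 (14.4 FPKM, against 0.559 and 0.405 in CR replicates 1 and 2). Feeding and these regional markers changed between the same libraries, so for every difference reported here they cannot be told apart, and in bulk tissue fewer cells of a type cannot be told apart from less RNA per cell.

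Between control and CR brains, Fgfr3 rose, Etv1, Etv5 and Spry2 fell, and the other 6 genes did not pass the test. Of the 7 feedback and target genes 3 fell and 4 did not pass, and of the 3 receptor genes 1 rose. All 10 genes had a mean above the minimum of 0.5 FPKM and entered a limma test on log2(FPKM + 1) over 15247 genes, with a threshold of 0.05 on the adjusted p. Of all tested genes, 33.9% were called, 17.7% as higher and 16.2% as lower in CR, so 4 calls among 10 genes, 1 higher and 3 lower, lie near the share in the whole table. In 2 of the 10 genes all 3 CR values lay above all 3 control values, and in 3 they lay below. Over all tested genes these shares were 26.1% and 24.3%. The median log2 fold change of the 10 genes was -0.12, against 0.01 for all tested genes.

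**Figure D1:**
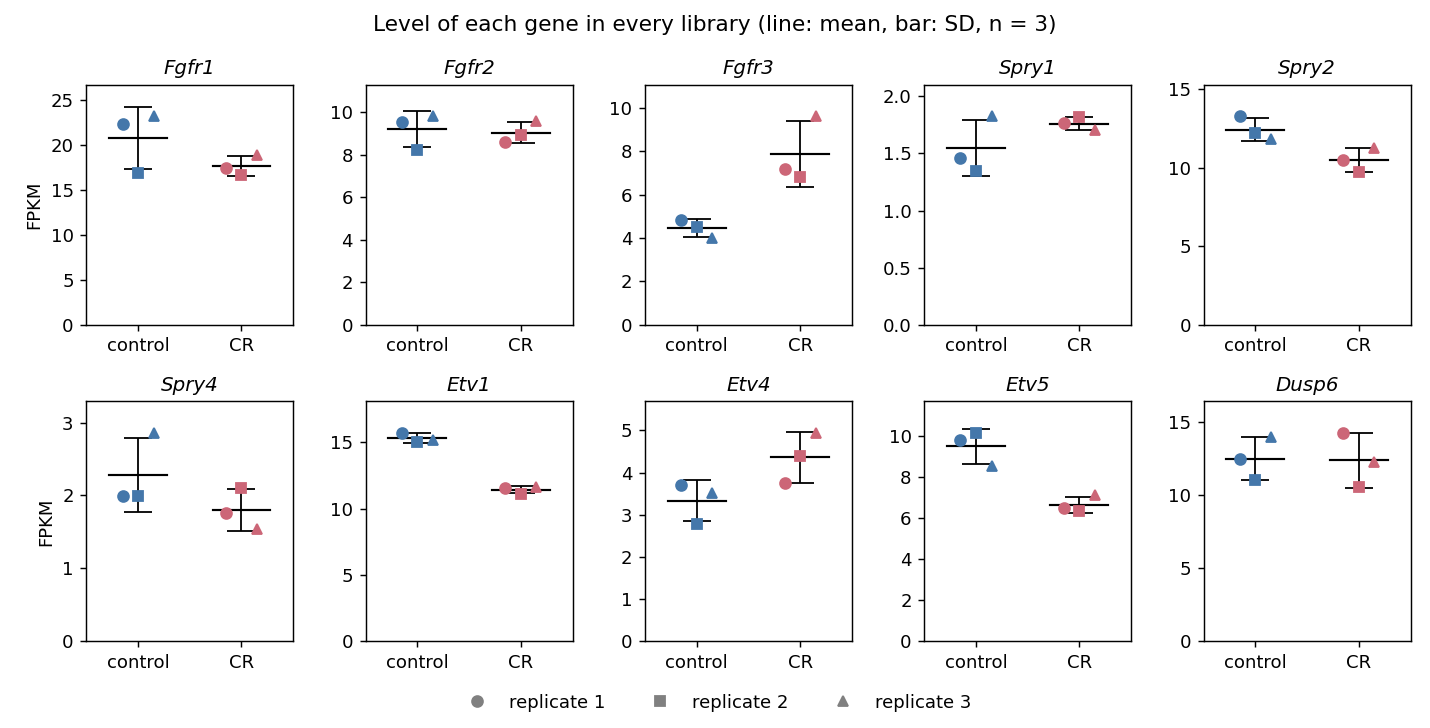
FPKM (vertical axes, from 0) of each of the 10 genes in the 3 control and 3 CR libraries, with 1 point per library, a line at the group mean and a bar of 1 SD (n = 3). The groups do not overlap for Fgfr3, Etv4, Etv1, Etv5 and Spry2, and for Etv4 the gap runs only from 3.71 to 3.75 FPKM.

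Among the receptors, Fgfr3, which in brain is best known from radial glia and astrocytes, measured 4.85, 4.51 and 4.02 FPKM in the control libraries and 7.17, 6.81 and 9.61 FPKM in the CR libraries, with values in the order of replicates 1 to 3, as for the other genes. All CR libraries were above all control libraries, and CR replicate 3 was the highest. The means were 4.46 ± 0.417 and 7.86 ± 1.52 FPKM (SD, n = 3), a 1.76-fold difference with a log2 fold change of 0.69 (SE 0.128, limma adjusted p = 0.00630). That change was larger in size than those of 93.5% of tested genes. Between 292 and 1060 reads per library lay behind these values. Fgfr3 kept its call in all 17 alternative settings, and without CR replicate 3 its log2 fold change was 0.55 (adjusted p = 0.0164). The gene (ENSRNOG00000016818) lies on the minus strand of chromosome 14 from 76987993 to 77003341 on mRatBN7.2.

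Markers of astrocytes moved with Fgfr3. The summed FPKM of 12 astrocyte markers was 249 to 309 in control and 421 to 462 in CR. Of these 12 markers 8 were called higher, none lower and 4 not. Over all tested genes 17.7% were called higher and 16.2% lower. None of the 12 astrocyte markers lacked reads in control. Aqp4, the water channel of astrocyte endfeet, was at 4.28 to 7.52 FPKM in control libraries and 12.7 to 15.9 in CR libraries, and Aldh1l1, a folate enzyme used as an astrocyte marker, at 5.16 to 5.49 and 9.17 to 9.68 FPKM. Of 12 markers of radial glia and progenitors 2 were called higher, 2 lower and 8 not, with a median log2 fold change of 0.03. All 3 CR values lay above all control values for 1 of the 12 and below them for 3. Their sum, 927 to 1127 FPKM in control libraries and 1247 to 1328 in CR libraries, was mostly Fabp7, a lipid-binding protein gene of radial glia, with means of 667 and 912 FPKM. Oligodendrocyte lineage markers, 8 genes of which 4 were called higher and none lower, summed to 51.0 to 60.2 and 69.3 to 80.8 FPKM. Lists other than these also rose. Sums in control and CR libraries were 3.23 to 19.5 and 74.3 to 110 FPKM for thalamic markers. They were 42.6 to 71.6 and 120 to 150 FPKM for cerebellar markers, and 31.6 to 44.8 and 56.1 to 64.8 FPKM for microglial markers. Sums of meningeal, endothelial and choroid plexus markers overlapped between the groups. The part of these cell types and regions in the Fgfr3 difference was not tested.

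Fgfr1, the receptor gene with the highest level, was at 22.3, 16.8 and 23.2 FPKM in control and 17.4, 16.6 and 18.9 FPKM in CR. Control replicate 2 lay among the CR values while the other 2 control libraries were above all of them. The log2 fold change of -0.21 (95% confidence interval -0.49 to 0.06) did not pass (limma adjusted p = 0.195), but without control replicate 2 it was -0.35 with an adjusted p of 0.0153. RefSeq lists a pseudogene, Fgfr1-ps1, that is not a gene of the tables, so reads shared with it could not be traced and the level is uncertain to that extent. Fgfr2, at 9.56, 8.23 and 9.82 FPKM in control and 8.61, 8.92 and 9.60 in CR, had groups that overlapped fully. Its log2 fold change was -0.02, with a 95% confidence interval from -0.21 to 0.17 (adjusted p = 0.870).

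The 3 receptor genes differed in their shares of receptor transcripts. Their summed FPKM was 34.4 ± 4.23 in control and 34.5 ± 3.09 in CR (SD, n = 3). Of that sum, Fgfr3 made up 13.2%, 15.3% and 10.9% in control replicates 1 to 3 and 21.6%, 21.1% and 25.2% in CR replicates 1 to 3. Fgfr2 stayed between 25.2% and 27.9% in the 6 libraries, and Fgfr1 went from 56.9% to 62.6% in control to 49.6% to 52.5% in CR. In control the level of Fgfr3 was 0.409 to 0.548 times that of Fgfr2, and in CR it was 0.764 to 1.00 times that of Fgfr2. These ratios are per length and were not tested.

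**Figure D2:**
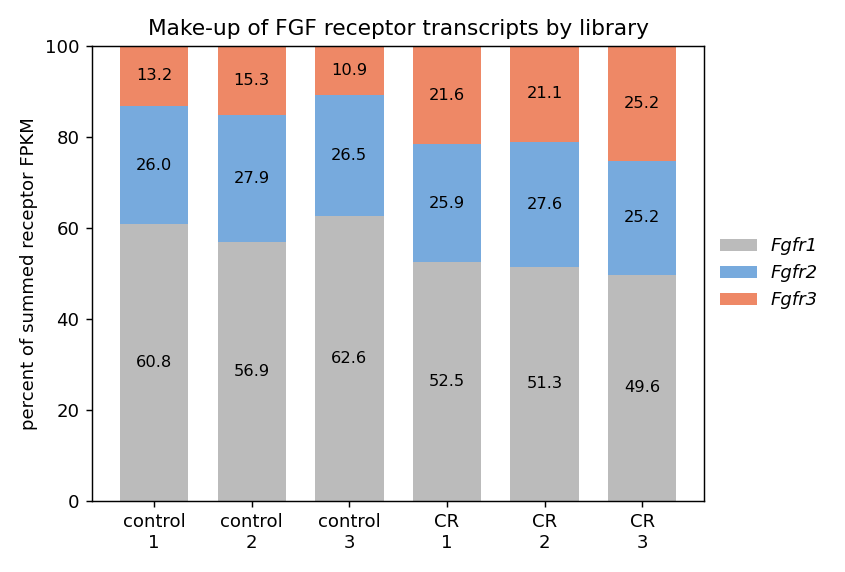
Share of each receptor gene in the summed FPKM of Fgfr1, Fgfr2 and Fgfr3 (vertical axis, percent) in each library. The Fgfr3 share lies between 10.9% and 15.3% in control and between 21.1% and 25.2% in CR, while the Fgfr2 share stays between 25.2% and 27.9% throughout.

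Of the PEA3-group genes, Etv1 and Etv5 fell and Etv4 did not pass. Etv1, known in cortex as a gene of layer 5 projection neurons, was at 15.7, 15.0 and 15.2 FPKM in control and at 11.6, 11.1 and 11.6 FPKM in CR. Within each group its libraries differed by less than 1 FPKM, and the groups were well apart. It fell from 15.3 ± 0.373 to 11.4 ± 0.272 FPKM (SD, n = 3), 1.34-fold, with a log2 fold change of -0.39 (SE 0.0539, limma adjusted p = 0.00220). This was the smallest adjusted p among the 10 genes, from 1475 to 2543 reads per library. Etv1 (ENSRNOG00000006867) lies on the plus strand of chromosome 6 from 55590234 to 55681775 on mRatBN7.2.

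Etv5, which is expressed in cortical progenitors and in glia, was at 9.80, 10.2 and 8.51 FPKM in control and 6.49, 6.35 and 7.10 FPKM in CR. Every CR library was below every control library. The fall from 9.49 ± 0.862 to 6.65 ± 0.40 FPKM was 1.43-fold (log2 fold change -0.45, SE 0.0842, limma adjusted p = 0.00624). Etv5 (ENSRNOG00000001785, plus strand of chromosome 11 from 78608710 to 78666215) has 4 pseudogenes in RefSeq that are not genes of the tables, which leaves shared reads untraced. Etv1 and Etv5 kept their calls in all 17 alternatives, with adjusted p-values up to 0.0126 and 0.0294.

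Etv4, the founding member of the group, was at 3.71, 2.78 and 3.51 FPKM in control and at 3.75, 4.39 and 4.94 FPKM in CR, opposite in direction to its relatives. Its log2 fold change of 0.31 (95% confidence interval 0.02 to 0.59, SE 0.123) did not pass (limma adjusted p = 0.0913). Among the alternatives it passed only with limma-voom on recovered reads (0.39, adjusted p = 0.0489), and over the 17 alternatives its adjusted p ran from 0.0489 to 0.267. The ratio of Etv4 to Etv5 was 0.274 to 0.412 in control and 0.578 to 0.696 in CR. The ratio of Etv1 to Etv5, in contrast, was 1.48 to 1.78 in control and 1.63 to 1.78 in CR, which overlap. Neither ratio was tested.

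The fall of Etv1 and Etv5 went together with lower dorsal telencephalic markers. Of 10 such markers 9 were called lower and none higher, against 16.2% and 17.7% of all tested genes. Fezf2, which specifies the deep-layer neurons that also express Etv1, was at 33.2 to 37.5 FPKM in control libraries and 12.4 to 18.6 in CR libraries. Among 14 ventral telencephalic markers 11 were called lower and none higher, and their sum was 169 to 208 FPKM in control libraries and 113 to 127 in CR libraries. No listed marker of either part lacked reads in control. The part of the telencephalic markers in the Etv1 and Etv5 differences was not tested.

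**Figure D3:**
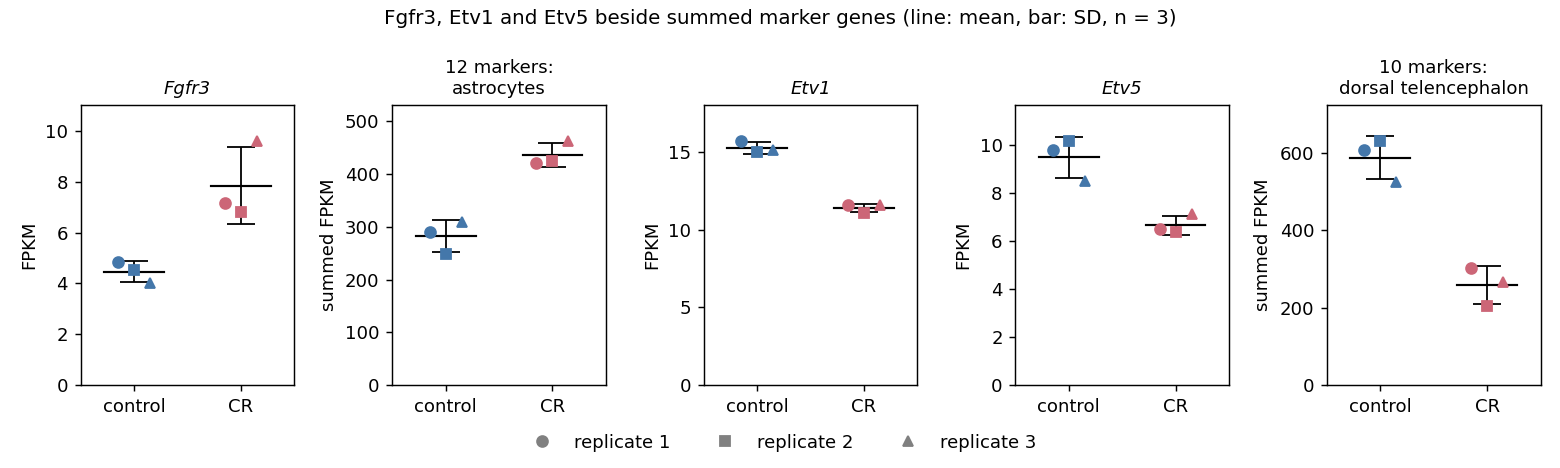
FPKM of Fgfr3, Etv1 and Etv5 beside the summed FPKM of 12 astrocyte markers and of 10 dorsal telencephalic markers (vertical axes, from 0), with 1 point per library, a line at the mean and a bar of 1 SD (n = 3). Fgfr3 and the astrocyte sum are higher in each CR library than in each control library, and Etv1, Etv5 and the dorsal telencephalic sum are lower.

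Among the inhibitors, Spry2 passed narrowly and Spry1, Spry4 and Dusp6 did not. Spry2, the Sprouty gene with the highest level here, was at 13.3, 12.2 and 11.8 FPKM in control and at 10.5, 9.74 and 11.2 FPKM in CR. The CR libraries were all lower, with a gap from 11.2 to 11.8 FPKM between the groups. It fell from 12.4 ± 0.758 to 10.5 ± 0.742 FPKM (SD, n = 3), 1.19-fold (log2 fold change -0.23, SE 0.0739, limma adjusted p = 0.0490). The call was lost in 10 of 17 alternatives, 5 of them leaving out 1 library: without control replicate 1 (adjusted p = 0.130), control replicate 2 (0.0871), CR replicate 1 (0.109), CR replicate 2 (0.159) and CR replicate 3 (0.0594). Spry2 (ENSRNOG00000010058) lies on the minus strand of chromosome 15 from 82692143 to 82698009 on mRatBN7.2.

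Spry4 was at 1.99, 1.99 and 2.86 FPKM in control and at 1.77, 2.10 and 1.54 FPKM in CR, with control replicate 3 the highest and the other values mixed (log2 fold change -0.22, 95% confidence interval -0.54 to 0.10, limma adjusted p = 0.252). Spry1 was at 1.46, 1.35 and 1.83 FPKM in control and 1.76, 1.82 and 1.70 in CR, where control replicate 3 lay just above all CR libraries (0.12, -0.13 to 0.37, adjusted p = 0.417). Read numbers were low for both, with 142 to 275 for Spry4 and 144 to 328 for Spry1, as they were for Etv4 with 141 to 344. The summed FPKM of the 3 Sprouty genes was 16.2 ± 0.634 in control and 14.0 ± 0.406 in CR, of which Spry2 was the main part.

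Dusp6, a sensitive transcript of FGF and ERK activity in many embryonic tissues, did not differ detectably. It was at 12.5, 11.04 and 14.0 FPKM in control and at 14.3, 10.6 and 12.3 FPKM in CR, with the highest and the lowest of the 6 values both in CR. The means of 12.5 ± 1.46 and 12.4 ± 1.86 FPKM gave a log2 fold change of -0.02 with a 95% confidence interval from -0.29 to 0.26 (limma adjusted p = 0.930). Changes within that interval were not detectable with these libraries. An unnamed gene on the opposite strand overlaps an exon of Dusp6, and it held 11 to 23 reads per library against 486 to 876 for Dusp6. The other 9 genes had no exon overlap with another gene of the tables.

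**Figure D4:**
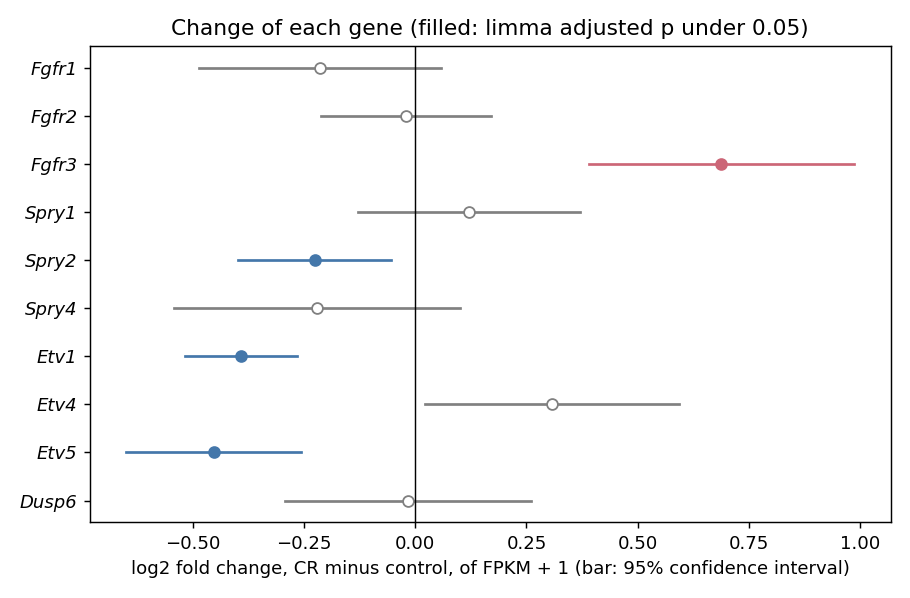
Log2 fold change (horizontal axis, CR minus control, of FPKM + 1) of each of the 10 genes with its 95% confidence interval from limma, with filled points where the adjusted p was under 0.05. Fgfr3 stands at 0.69, Etv1, Etv5 and Spry2 lie below 0, and the intervals of Fgfr1, Fgfr2, Spry1, Spry4 and Dusp6 include 0.

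In level per length, the order of the 10 genes was largely kept between the groups. In control it ran from Fgfr1 (20.8 FPKM) over Etv1 (15.3), Dusp6 (12.5), Spry2 (12.4), Etv5 (9.49), Fgfr2 (9.21), Fgfr3 (4.46), Etv4 (3.33) and Spry4 (2.28) to Spry1 (1.55). The library values of the neighbours Dusp6 and Spry2, of Etv5 and Fgfr2, and of Etv4 and Spry4 overlapped, and the other neighbours did not. In CR the order was Fgfr1, Dusp6, Etv1, Spry2, Fgfr2, Fgfr3, Etv5, Etv4, Spry4 and Spry1. There Dusp6 overlapped Etv1, Etv1 overlapped Spry2, Fgfr2 overlapped Fgfr3, Fgfr3 overlapped Etv5, and Spry4 overlapped Spry1. Etv5 thus moved from 2.02 to 2.25 times the level of Fgfr3 in control to 0.739 to 0.932 times in CR. Within the control group, replicate 2 had the lowest value for 7 of the 10 genes, and within the CR group replicate 3 had the highest for 7 of 10.

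Promoter sequences of the 4 called genes are shown because 3 of them fell and 1 rose, and 2 of those that fell encode ETS factors. They run from 250 bases before to 50 bases after the annotated start, in the direction of transcription, from RefSeq on GRCr8, which is a different build from that of the tables. RefSeq entries were found for 8 of the 10 genes, and Fgfr1 and Etv4 are named only. Capitals mark the letters CCGGAA, the core that many ETS factors bind, which was searched on both strands. Fgfr3 is at chr14:81227160-81227459 (minus strand), Etv1 at chr6:61317179-61317478 (plus), Etv5 at chr11:92113013-92113312 (plus) and Spry2 at chr15:89111877-89112176 (minus, the upstream of 2 listed starts).
Fgfr3: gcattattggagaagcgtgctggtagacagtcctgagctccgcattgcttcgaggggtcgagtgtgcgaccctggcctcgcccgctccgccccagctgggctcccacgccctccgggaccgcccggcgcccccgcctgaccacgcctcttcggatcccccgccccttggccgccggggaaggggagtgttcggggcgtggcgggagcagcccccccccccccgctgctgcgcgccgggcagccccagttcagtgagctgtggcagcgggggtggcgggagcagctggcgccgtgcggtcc
Etv1: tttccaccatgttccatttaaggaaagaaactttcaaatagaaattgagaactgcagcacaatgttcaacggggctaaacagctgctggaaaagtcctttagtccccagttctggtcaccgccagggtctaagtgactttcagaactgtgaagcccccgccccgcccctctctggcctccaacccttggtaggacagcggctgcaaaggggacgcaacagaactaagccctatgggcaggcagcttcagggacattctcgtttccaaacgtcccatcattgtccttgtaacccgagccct
Etv5: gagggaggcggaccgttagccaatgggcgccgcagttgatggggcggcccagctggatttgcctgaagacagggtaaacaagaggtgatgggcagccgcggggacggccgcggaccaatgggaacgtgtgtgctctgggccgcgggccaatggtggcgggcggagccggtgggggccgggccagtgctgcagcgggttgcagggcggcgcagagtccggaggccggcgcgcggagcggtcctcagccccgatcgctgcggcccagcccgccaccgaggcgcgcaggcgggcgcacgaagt
Spry2: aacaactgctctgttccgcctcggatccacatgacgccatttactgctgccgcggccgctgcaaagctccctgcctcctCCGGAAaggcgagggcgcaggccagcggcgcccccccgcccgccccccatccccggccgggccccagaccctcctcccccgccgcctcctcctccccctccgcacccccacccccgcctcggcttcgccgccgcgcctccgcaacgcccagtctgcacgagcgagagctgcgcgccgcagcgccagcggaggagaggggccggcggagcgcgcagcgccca

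The Spry2 window holds 1 such match, at position -171 from the start, and among the genes not shown Spry4 holds 1, on the opposite strand. The windows of Fgfr2, Fgfr3, Spry1, Etv1, Etv5 and Dusp6 and of the other Spry2 start hold none. Of 33469 RefSeq promoters of 300 bases, 15.0% hold the same letters. The longer form CCGGAAG, which contains the first motif, was in no window of these genes and in 8.75% of all promoters. By base composition the windows ranged from 52.0% G and C for Etv1 to 77.7% for Fgfr2, against a median of 51.7% over all promoters. A match is a description of letters and shows no binding.

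Upstream of the receptors, secreted FGF ligand genes had low levels, and the 3 that were called were higher in CR. Of 17 such genes 7 passed the filter, and of these 7 genes 3 were called higher, none lower and 4 not. Over all tested genes 17.7% were called higher and 16.2% lower. The filter is on the mean of all 6 libraries. Fgf1 and Fgf10, at means of 0.461 and 0.457 FPKM in control, passed it through their CR values. Among genes under it, Fgf5 was higher in control (means 0.589 and 0.288 FPKM) and Fgf3 in CR (0.255 and 0.678 FPKM). Which ligands were tested thus depended partly on their CR levels. Fgf22, an FGF that organizes presynaptic terminals, was at 0.984, 0.428 and 0.642 FPKM in control and at 1.51, 1.76 and 1.46 FPKM in CR (log2 fold change 0.63, limma adjusted p = 0.0136, and 0.0566 without CR replicate 2). Fgf10, known in brain from hypothalamic tanycytes, was at 0.548, 0.224 and 0.599 FPKM in control and 0.966, 1.10 and 1.57 FPKM in CR (0.60, adjusted p = 0.0218). Its call was lost without control replicate 2 (0.0574), CR replicate 2 (0.0581) or CR replicate 3 (0.0772). Fgf1, at 0.420 to 0.496 FPKM in control libraries and 0.896 to 1.12 in CR libraries (0.43, adjusted p = 0.0184), lost its call with quantile normalization (0.0663) and without CR replicate 2 (0.0768) or CR replicate 3 (0.0515). Fgf9, a ligand of FGFR3 made by neurons, had the highest level, at 2.35, 2.41 and 3.44 FPKM in control and 3.12, 4.08 and 4.23 FPKM in CR (0.37, adjusted p = 0.0884). Fgf18, a ligand of the FGF8 subfamily, was at 1.65 ± 0.456 and 1.44 ± 0.341 FPKM (adjusted p = 0.622).

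Genes that bind FGFs or their receptors outside the ligand family changed in both directions. Of 6 tested co-receptor and binding protein genes 1 was called higher and 3 lower, against 17.7% and 16.2% of all tested genes. Fgfbp3, a secreted protein that releases FGFs from heparan sulfate, was at 19.2, 15.5 and 19.3 FPKM in control and at 41.0, 38.3 and 40.8 FPKM in CR, a 2.22-fold rise (log2 fold change 1.12, SE 0.0855, limma adjusted p = 0.000406). The 3 FLRT genes encode transmembrane proteins that bind FGF receptors and guide axons and migrating neurons. Flrt2 fell from 15.0 ± 2.19 to 9.25 ± 0.779 FPKM (SD, n = 3) and Flrt3 from 11.4 ± 1.19 to 7.16 ± 0.497 FPKM (adjusted p = 0.00457 and 0.00273), and exons of Flrt3 overlap an unnamed gene on the same strand. Flrt1 fell from 4.41 ± 0.50 to 3.35 ± 0.135 FPKM (adjusted p = 0.0395), a call lost in 7 of 17 alternatives with adjusted p-values up to 0.109. Fgfrl1, a receptor without a kinase domain, was at 1.94 ± 0.188 and 2.22 ± 0.509 FPKM (adjusted p = 0.514), and Fgfr4 was at 0.0808 to 0.295 FPKM, from 7 to 26 reads.

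Of 4 genes of intracellular FGF homologous factors, which bind sodium channels and do not act on receptors, Fgf11 fell from 11.03 ± 0.652 to 7.74 ± 0.811 FPKM (SD, n = 3, limma adjusted p = 0.00603). Fgf12 rose from 7.99 ± 0.205 to 9.81 ± 0.186 FPKM (adjusted p = 0.0128, and 0.0539 without CR replicate 2 and 0.0555 without CR replicate 3).

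Downstream, the adaptor and RAS to ERK genes had 5 members called higher, 5 lower and 12 not, of 22 tested. Their median log2 fold change was -0.03. Over all tested genes the shares called were 17.7% higher and 16.2% lower. The adaptor gene Frs2 fell from 13.1 ± 1.14 to 10.1 ± 0.235 FPKM (SD, n = 3) while its neuronal relative Frs3 rose from 5.02 ± 0.166 to 7.47 ± 0.585 FPKM (limma adjusted p = 0.00957 and 0.00364). Of the RAF kinase genes, Araf rose from 29.3 ± 0.157 to 39.6 ± 2.15 FPKM (adjusted p = 0.00154), whereas Braf was at 5.59 ± 0.237 and 5.56 ± 0.558 FPKM (0.950). Exons of Araf overlap those of Syn1 on the opposite strand, and the sources used here do not say whether reads were counted by strand. Nras fell from 44.9 ± 1.52 to 34.8 ± 2.14 FPKM and the MEK gene Map2k2 rose from 35.3 ± 1.98 to 47.2 ± 1.97 FPKM (0.00352 and 0.00222). Rps6ka1, an ERK-activated kinase gene, rose from 1.19 ± 0.201 to 1.89 ± 0.154 FPKM (adjusted p = 0.0270), a call lost in 8 of the 16 alternatives in which it was tested, with adjusted p-values up to 0.0997. Hras rose from 34.6 ± 1.86 to 40.3 ± 2.35 FPKM (adjusted p = 0.0311), and its exons overlap Lrrc56 on the opposite strand. That call was lost in 12 of 17 alternatives, with adjusted p-values up to 0.0944. Mapk3, the gene of ERK1, is listed at 0 in all 6 libraries. Reads that were not assigned to the gene would also give 0, so its expression cannot be judged from these values.

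Among 15 other tested inhibitors of the pathway, 1 was called higher, 4 lower and 10 not. The shares over all tested genes were 17.7% higher and 16.2% lower. Cblb, a ubiquitin ligase that removes receptor signalling complexes, fell from 11.7 ± 0.683 to 6.22 ± 0.934 FPKM (SD, n = 3, log2 fold change -0.82, limma adjusted p = 0.00158). Rasa1, which switches RAS off, fell from 31.4 ± 0.777 to 22.6 ± 0.780 FPKM, the ERK phosphatase gene Dusp7 from 11.9 ± 0.0302 to 9.02 ± 0.378 FPKM, and Cic, a repressor of the PEA3-group genes that ERK inactivates, from 18.3 ± 1.204 to 14.2 ± 0.535 FPKM (adjusted p = 0.00102, 0.00393 and 0.00630). Il17rd, also called Sef, which inhibits FGF receptor signalling and is grouped with Sprouty genes as an FGF-induced transcript, rose from 1.24 ± 0.216 to 2.22 ± 0.332 FPKM (0.0158), and the call was lost without CR replicate 2 (0.0656) or CR replicate 3 (0.0582). Dusp4 was at 22.9 ± 3.20 and 22.7 ± 0.154 FPKM and Spred1, a Sprouty-related inhibitor, at 9.99 ± 1.22 and 7.94 ± 0.856 FPKM (0.974 and 0.0614).

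Of 19 tested genes from a list of ERK-induced transcripts and ETS factors, 6 were called lower, none higher and 13 not. All tested genes had shares of 16.2% lower and 17.7% higher. Fosl2 fell from 6.15 ± 0.366 to 3.13 ± 0.353 FPKM and Egr3 from 1.53 ± 0.182 to 0.674 ± 0.195 FPKM (SD, n = 3, limma adjusted p = 0.00136 and 0.0104). Elk4, which encodes an ETS factor, fell from 4.61 ± 0.0433 to 3.12 ± 0.179 FPKM (0.00537), and its exons overlap Mfsd4a on the opposite strand. Junb (7.69 ± 0.511 to 4.67 ± 1.69 FPKM, 0.0298), Myc (15.7 ± 1.55 to 11.9 ± 1.31 FPKM, 0.0219) and Mafk (2.76 ± 0.151 to 1.83 ± 0.259 FPKM, 0.0194) each lost the call without 3 or 4 of the 6 libraries in turn, with adjusted p-values up to 0.103, 0.0793 and 0.0738. Exons of Junb overlap an unnamed gene on the opposite strand. The tables hold 2 Ensembl genes named Mafk that overlap, and the one with the higher mean was used. Egr1, Fos and Ccnd1 did not pass (adjusted p = 0.344, 0.518 and 0.691).

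Heparan sulfate, the sugar chain that FGFs need to bind their receptors, was represented by 22 tested genes of its synthesis and core proteins, with 5 called higher, 5 lower and 12 not. Sulf2, which removes sulfate groups from the chains outside the cell, rose from 16.1 ± 0.724 to 29.3 ± 1.64 FPKM, and Sulf1 from 3.32 ± 0.399 to 5.77 ± 0.839 FPKM (SD, n = 3, limma adjusted p = 0.000378 and 0.00597). Ndst4, a sulfotransferase of chain synthesis, rose from 0.715 ± 0.174 to 2.703 ± 0.586 FPKM (0.00182). Of the syndecan core proteins, Sdc2 rose from 7.35 ± 1.09 to 12.1 ± 0.204 FPKM and Sdc3 from 70.1 ± 5.04 to 106 ± 4.95 FPKM, whereas Sdc1 fell from 9.72 ± 0.371 to 5.82 ± 0.798 FPKM (0.00306, 0.00102 and 0.00279). Gpc2, a glypican of developing neurons, fell from 91.2 ± 2.98 to 70.0 ± 7.56 FPKM (0.00826). The lower calls of Hs3st1, Glce and Hs6st2 were lost in 9, 9 and 8 of 17 alternatives (limma adjusted p up to 0.155, 0.149 and 0.111). Over all these pathway lists, 40 of 95 tested genes were called, 16 higher and 24 lower. Of all tested genes 33.9% were called, 17.7% higher and 16.2% lower.

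**Figure D5:**
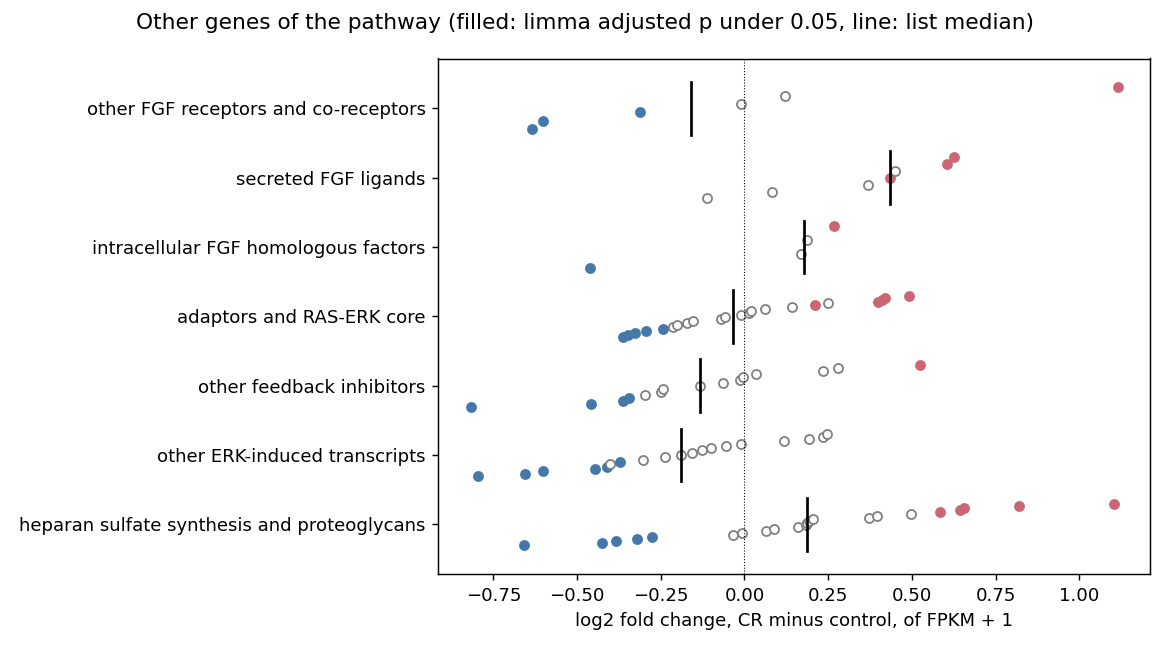
Log2 fold change (horizontal axis, CR minus control, of FPKM + 1) of 95 tested genes of 7 pathway lists other than the 10 genes, with filled points where the limma adjusted p was under 0.05 and a line at each list's median. Secreted ligands, of which Fgf1 and Fgf10 passed the filter through their CR values, have called genes only above 0. The list of ERK-induced transcripts and ETS factors has called genes only below 0, and the other lists have both.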

How the data were processed

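Polyadenylated RNA of newborn rat brain was sequenced in 6 libraries made with a stranded kit, per the labels' protocols. The submitters' processing notes name STAR 2.7.10a and featureCounts 2.0.1, besides the trimming tools cutadapt 1.16, Trimmomatic 0.36 and Trim Galore 0.4.4, and the build mRatBN7.2, without settings. The deposited values are FPKM per Ensembl gene, computed by the authors, with exon lengths per the file headers. The product of FPKM and length had an equal sum in all tables, and 100% of values were whole multiples (within 0.05) of 1 read, so reads per gene were worked out.

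Genes averaging 0.5 FPKM or more were fitted on log2(FPKM + 1) with limma 3.58.1 in R 4.3.3, with group as the only term, a trend on the mean, two-sided tests and Benjamini-Hochberg adjustment over all of them. The fit was tested on simulated data. A pseudocount of 1 understates changes of low genes. Confidence intervals are at 95% and cover the spread between libraries.

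The 10 genes, the gene lists and the marker lists were chosen with earlier results of these data known. The rule named all 10 genes, up to 5 called genes per pathway list by absolute log2 fold change as a minimum, and marker lists by sums and defining genes. Genes of these lists named without a call (Fgf9, Fgf18, Fgfrl1, Fgfr4, Braf, Mapk3, Dusp4, Spred1, Egr1, Fos and Ccnd1), like those in the closing section, were picked after their values were seen. Dusp1, Gpc4, Fgf15 and Fgf16 had no symbol in the tables and were not analysed here. Alternatives were other pseudocounts, filters, normalizations, moderation, a replicate block, a Y-linked covariate, limma-voom with TMM factors and leaving out each library. Some genes of the lists are not reported here by name.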

Additional observations from a re-analysis of the deposited data

How the results depend on the processing

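Fgfr3, Etv1 and Etv5 kept direction and call in each of the 17 alternatives run. Spry2 kept its direction in 17 and lost its call in 10: with no filter on low values (log2 fold change -0.23), quantile normalization (-0.19), limma without the trend (-0.23), the replicate block (-0.23, adjusted p = 0.0821), the Y-linked covariate (-0.23) and 5 of the 6 fits without a library (log2 fold changes over the 6 from -0.27 to -0.18). Etv4 gained a call with limma-voom (0.39), and Fgfr1 gained one in the leave-one-out fit without control replicate 2 (leave-one-out range -0.35 to -0.13). The signs of Fgfr2, Dusp6 and Spry1, none called, changed in 4, 3 and 1 alternatives. Spry1 fell under the stricter minimum of 2 FPKM and was not tested there. The cause of these changes was not tested. The number of called genes was 5173, and leaving out 1 library gave 3210 (without CR replicate 2) to 5042 (without control replicate 3), with 3308 without CR replicate 3. Of the 10 genes 3 to 5 were called, and of the other pathway genes 27 to 51 against 40. Deviations of libraries with the same replicate number were weakly correlated (0.0245, 0.0198 and 0.0454), and those with unlike numbers had correlations from -0.0428 to 0.0165. The labels do not say whether the numbers pair libraries, and correlations this small cannot decide it. With the replicate block 4445 genes, 3 of the 10 and 38 of the other pathway genes were called. Reads of Eif2s3y and Kdm5d, both Y-linked, were present in control replicate 3 and CR replicates 1 and 3 and absent from the other 3 libraries. Depth limits genes such as Spry4 and Etv4, with as few as 142 and 141 reads in control replicate 1.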

Other observations

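Several secreted FGF genes under the filter on low values had a few reads in each group. Fgf17, a ligand made at the boundary of midbrain and hindbrain, had 1, 1 and 1 reads in control replicates 1 to 3 and 3, 9 and 7 in CR replicates 1 to 3. Fgf3 had 3, 2 and 5 reads in control and 10, 16 and 11 in CR, and Fgf23, a hormone of phosphate balance, had 4, 4 and 4 and 19, 16 and 14. Fgf8, the main ligand of the same boundary in the early embryo, had 3, 0 and 5 reads in control and 4, 4 and 4 in CR. Fgf5 had 7, 15 and 6 reads in control and 5, 10 and 2 in CR. Fgf4 had no read in any library. At these depths the values describe the libraries, and no test of these genes is reported.

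The engrailed genes, targets of FGF8 at that boundary, were at 0.339, 0.134 and 0.0738 FPKM for En1 in control and at 4.51, 5.95 and 4.32 FPKM in CR, while En2 had 1, 1 and 0 reads in control and was at 5.34, 6.02 and 3.92 FPKM in CR. They are among the midbrain markers of the report.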
